A study of Mus musculus with 4 samples.

Results

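The cells described here were the neutrophil-like cells found among lymphoid-primed multipotent progenitors (LMPPs) sorted from mouse bone marrow. LMPPs stand early in blood formation and can still give rise to lymphocytes and to myeloid cells. A cell was a member if it held 20 or more UMIs, the molecular tags that count captured transcripts, over S100a8 and S100a9, the genes of both subunits of the neutrophil protein calprotectin. By this rule 73 of the 8883 cells kept by the authors were members, 0.822% (0.645 to 1.03, exact binomial interval at 95%, as for all shares), and the remaining 8810 cells were the cells they were set against.

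LMPPs were isolated by flow cytometry from C57BL/6 mice of 4 kinds, and each kind gave 1 droplet library. Uninduced mice lacked RBPJ, the DNA-binding protein through which Notch receptors act. Mice of the 3-day and 6-day groups had lacked RBPJ too, and doxycycline had switched it on for 3 or 6 days. Control mice had RBPJ throughout. Doxycycline came first as an injection of a 2 mg/ml solution and then in the drinking water at 1 mg/ml. Whether uninduced and control mice received it is unclear, because all 4 libraries carry that wording. The labels give neither the number of mice in a library nor the promoter that drives the inducible RBPJ. The kept cells of a library held 10647894 to 23504158 UMIs. With 1 library per group there is no replicate check on any difference between groups, and the intervals cover counting error only.

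Neutrophils arise in the bone marrow from granulocyte-monocyte progenitors and fill their granules in a fixed order. Primary granule proteins such as elastase and myeloperoxidase are made first, in promyelocytes. Secondary granule proteins such as lactoferrin and the cathelicidin CAMP follow in myelocytes, tertiary granule proteins such as gelatinase in metamyelocytes and band cells, and S100A8 and S100A9 fill the cytoplasm as the cell leaves the cell cycle and matures. The switch to secondary granule genes depends on the transcription factor C/EBP epsilon, encoded by Cebpe.

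The promoters of Camp, Ngp, Ltf and Lcn2 are printed because these 4 secondary granule genes had the highest levels of their class in members. The sequences run from 250 bases before to 50 bases after the RefSeq start site of each gene, on GRCm38.p6, the build of the deposited files. That site can differ from the gene bounds given further on, which come from GENCODE. Each is written 5′ to 3′ on the strand of its gene, in lower case, with matches to the letters TTNNGCAA or its reverse complement TTGCNNAA in capitals, a core of the kind that C/EBP factors bind. Camp lies at chr9:109849407-109849706 on the minus strand, Ngp at chr9:110419558-110419857 on the plus strand, Ltf at chr9:111019042-111019341 on the plus strand and Lcn2 at chr2:32387690-32387989 on the minus strand.
Camp: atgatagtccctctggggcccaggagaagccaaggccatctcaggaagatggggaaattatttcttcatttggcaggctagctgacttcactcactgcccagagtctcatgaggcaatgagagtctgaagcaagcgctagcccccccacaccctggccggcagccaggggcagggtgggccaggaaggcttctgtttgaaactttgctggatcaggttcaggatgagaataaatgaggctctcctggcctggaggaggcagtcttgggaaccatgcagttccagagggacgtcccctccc
Ngp: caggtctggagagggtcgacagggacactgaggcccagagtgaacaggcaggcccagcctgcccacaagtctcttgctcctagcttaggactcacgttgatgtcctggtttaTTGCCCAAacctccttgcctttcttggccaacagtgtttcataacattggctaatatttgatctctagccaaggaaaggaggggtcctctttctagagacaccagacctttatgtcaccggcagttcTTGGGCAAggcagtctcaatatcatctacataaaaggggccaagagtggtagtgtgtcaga
Ltf: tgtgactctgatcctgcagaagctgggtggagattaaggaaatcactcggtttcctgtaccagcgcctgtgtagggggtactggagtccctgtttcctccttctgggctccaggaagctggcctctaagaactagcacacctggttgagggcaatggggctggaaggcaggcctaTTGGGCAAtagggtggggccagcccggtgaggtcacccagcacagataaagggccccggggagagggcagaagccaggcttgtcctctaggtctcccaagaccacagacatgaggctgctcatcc
Lcn2: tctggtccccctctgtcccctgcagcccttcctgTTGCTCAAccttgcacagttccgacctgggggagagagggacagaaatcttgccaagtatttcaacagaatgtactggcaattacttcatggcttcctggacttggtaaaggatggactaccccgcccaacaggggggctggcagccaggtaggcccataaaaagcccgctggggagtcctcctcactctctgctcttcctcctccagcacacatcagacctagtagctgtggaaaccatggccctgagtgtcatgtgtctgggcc
Of 14 secondary granule genes listed, 11 had a promoter in the RefSeq table, and 4 of these 11 (36.4%) held a match, against 3547 of all 32851 promoters of the same length (10.8%). Ngp held matches 138 and 11 bases before its RefSeq start site, Ltf 75 bases before, Lcn2 216 bases before and Fcnb 235 and 123 bases before. Camp held none in this window. These matches describe the letters only, and binding was not measured.

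Every cell that passed the rule passed it by a wide margin. Members held a median of 1900 S100a8 and S100a9 UMIs, between 79 and 4559, which was a median of 35.9% of all UMIs in the cell. The 5 members nearest the threshold held 79, 85, 116, 117 and 167, and the 4 remaining cells nearest to it held 13, 12, 7 and 6. No cell lay between 20 and 49. S100a8 (ENSMUSG00000056054; GRCm38 chromosome 3, 90668978 to 90670035) had 47 to 3212 UMIs in members, with a median of 1229. S100a9 (ENSMUSG00000056071; chromosome 3, 90692632 to 90695721) had 2 to 1474, with a median of 648. Members held 98.2% of all S100a8 and S100a9 UMIs in kept cells. Among remaining cells 22.0% had at least 1 such UMI, and barcodes of 10 to 100 UMIs, which hold RNA from outside cells, carried S100a8 at 1665 CPM in the uninduced, 2138 CPM in the 3-day, 1945 CPM in the 6-day and 663 CPM in the control library. In the remaining cells S100a8 stood at 21.2 CPM in the uninduced, 34.6 CPM in the 3-day, 26.4 CPM in the 6-day and 11.3 CPM in the control library. The libraries thus had the same order in both, with control lowest. CPM scales counts to a fixed library total.

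**Figure D1:**
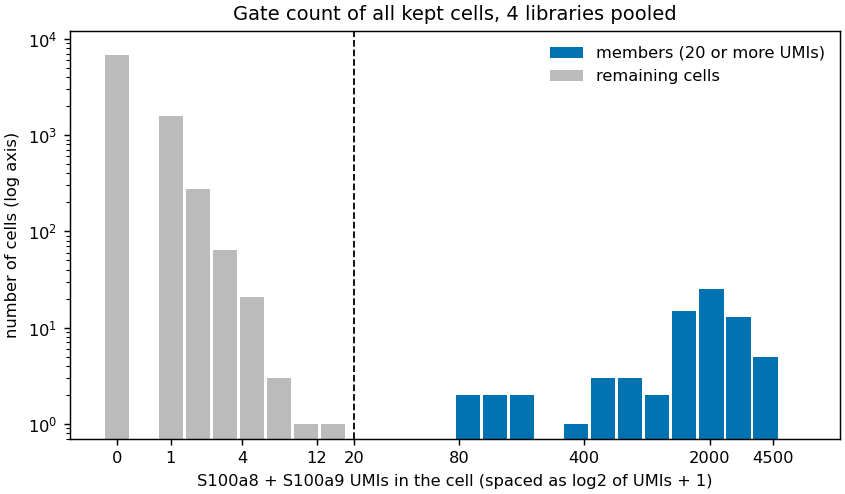
Number of kept cells (log axis) by their S100a8 and S100a9 UMIs, 4 libraries pooled, members in blue and remaining cells in grey. The members start at 79 UMIs and the remaining cells end at 13, and no cell lies at the dashed line at 20.

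The neutrophil label held for most members by the other markers, but not for all. Of the marker genes besides the gate, Camp and Ngp each had a UMI in 66 of 73 members and Ltf in 62. The 5 members with fewer than 200 gate UMIs had no Camp, Ngp or Ltf UMI. Of these 5, 1 held 67 Elane UMIs, 1 held 4, and the other 3 had a Cd34 or Flt3 UMI. Of the last 3, 2 held 5 Retnlg UMIs each, and no remaining cell held more than 1. For these 5 the name thus has no support from Camp, Ngp or Ltf. Camp, Ngp and Ltf were also absent from a 3-day member with 59 Elane UMIs. The same held for a 6-day member with 107 Retnlg and 2 Cd34 UMIs. In the pool, members had fewer UMIs and fewer genes than the remaining cells. The median was 5659 UMIs (2474 to 28213) in members and 7358.5 in remaining cells, and 1395 genes in members and 2184 in remaining cells. For UMIs the uninduced library was an exception, with a median of 6855 in members and 6771 in remaining cells. After every cell was thinned to 2000 UMIs, the medians were 609 genes in members and 888 in remaining cells, with 0 members and 3 remaining cells too shallow to enter. Those 2000 UMIs include the gate genes. At 2000 UMIs other than S100a8 and S100a9, a setting added after the data were seen, the medians were 832 genes in members and 888 in remaining cells, with 4 members and 3 remaining cells left out. The libraries share 49 barcodes in 98 kept cells, and 0 members carry one.

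Secondary granule genes were far higher in members than in remaining cells, while stem and progenitor genes were lower. Levels are UMIs summed over the members or over the remaining cells and given as CPM, with S100a8 and S100a9 left out of the totals. They rest on 415557 UMIs in members. Ratios are log2 of (CPM + 1) in members over remaining cells, which understates the change of low genes. The cells were chosen on their own RNA, so no test was made and every ratio is a description. Of 2914 genes at 50 CPM or more in either set, 468 were 2-fold higher in members (16.1%) and 424 were 2-fold lower (14.6%), with a median ratio over all genes of -0.14. The ratio passed 2-fold in each of the 4 libraries for 290 of the higher and 124 of the lower genes. This split depended on the scaling. It was 524 higher and 332 lower when the genes at 50 CPM in both sets were centred, a shift of 0.13, and 261 higher and 862 lower when S100a8 and S100a9 stayed in the totals.

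**Figure D2:**
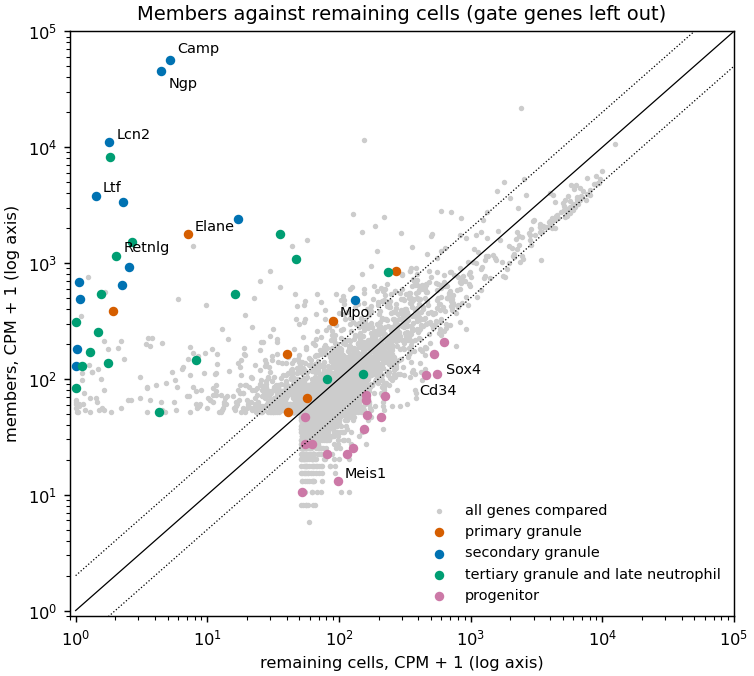
Level of each of the 2914 genes in members (vertical axis) against remaining cells (horizontal axis), CPM + 1 on log axes, gate genes left out. The solid line marks equal levels and the dotted lines 2-fold, and the secondary granule genes lie above the upper dotted line and 17 of the 18 progenitor genes below the lower one.

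Secondary granule genes were the most abundant of the granule classes, at a summed 125138 CPM in members and 161 CPM in remaining cells. Camp, Ngp and Ltf lie on chromosome 9 of GRCm38, Camp (ENSMUSG00000038357) from 109847379 to 109849617, Ngp (ENSMUSG00000032484) from 110419747 to 110423012 and Ltf (ENSMUSG00000032496) from 111019271 to 111042767. Of 14 on the list, 13 were more than 2-fold higher in members, with a median log2 ratio of 8.82, and Olfm4, olfactomedin 4, had no UMI in either set. Without a minimum level 9.04% of 16870 genes were 2-fold higher and 20.1% lower, and 12 of the 13 reached 50 CPM in members only, so they could enter the comparison only by being high there. Camp, the antimicrobial cathelicidin, stood at 55947 CPM in members (55229.7 to 56670.4) and 4.22 CPM in remaining cells (3.76 to 4.72). By library it stood at 60065 CPM in uninduced, 55615 CPM in 3-day, 43518 CPM in 6-day and 100356 CPM in control members. All 4 libraries were high. The 16 members with a Cd34 or Flt3 UMI, described further on, lay unevenly over the libraries, with 0 in control. Without those 16, Camp stood at 99919 CPM in uninduced, 73789.5 CPM in 3-day, 76876 CPM in 6-day and 100356 CPM in control members. Ngp, neutrophilic granule protein, stood at 45149 CPM in members and 3.46 CPM in remaining cells, with 48869 CPM in uninduced, 38882 CPM in 3-day, 39436 CPM in 6-day and 79993 CPM in control members. Without the 16 cells Ngp stood at 84954 CPM in uninduced, 48346 CPM in 3-day, 71303 CPM in 6-day and 79993 CPM in control members, so control was no longer the highest. Lcn2, the iron-siderophore binding lipocalin, had 10971 CPM in members and 0.792 CPM in remaining cells and was present in 71 of 73 members. Ltf, lactoferrin, had 2993 CPM in uninduced, 4673 CPM in 3-day, 3668 CPM in 6-day and 5830.1 CPM in control members, against 0.417 CPM in all remaining cells together. Without the 16 cells its range over the libraries narrowed to 5797 to 6303 CPM. In every library these 4 genes stood above the remaining cells of that library.

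The other secondary granule genes stood at lower levels in members and, Serpinb1a apart, below 50 CPM in remaining cells. Chil3, a chitinase-like lectin, had 3352 CPM in members and 1.29 CPM in remaining cells. Pglyrp1, a peptidoglycan recognition protein, had 2409 CPM in members and 16.1 CPM in remaining cells. Hp, haptoglobin, had 919 CPM in members and 1.54 CPM in remaining cells. Fcnb, the lectin ficolin B, had 688 CPM from 286 UMIs in members and 0.0694 CPM from 5 UMIs in remaining cells. Cd177, a neutrophil surface glycoprotein, had 489 CPM in members and 0.0833 CPM in remaining cells. Serpinb1a, an inhibitor of neutrophil serine proteases, had the smallest ratio of the class, 1.85, at 476 CPM in members and 132 CPM in remaining cells.

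Primary granule genes were higher in the pool but came from few cells and not from every library. Of 8 listed, 5 were 2-fold higher in members and 0 lower, with a median log2 ratio of 1.83 over the 7 at the minimum level. Elane, neutrophil elastase, had 966 CPM in uninduced, 3850.0 CPM in 3-day, 1439 CPM in 6-day and 0 CPM in control members, and 6.11 CPM in remaining cells. The 8 members with the most held 282, 59, 27 and 20 Elane UMIs at 3 days, 78, 67 and 46 at 6 days and 141 in the uninduced library. In all 12 of 73 members had an Elane UMI, and 1 of them held 38.3% of the total. Mpo, myeloperoxidase, had 197 CPM in uninduced, 774 CPM in 3-day, 166 CPM in 6-day and 0 CPM in control members, and 88.8 CPM in remaining cells. Prtn3, proteinase 3, had 693 CPM in uninduced, 1832 CPM in 3-day, 459 CPM in 6-day and 0 CPM in control members, and 269 CPM in remaining cells. The 7 control members had no UMI of Elane, Mpo, Prtn3 or Ctsg, the gene of cathepsin G, and at their depth a count of 0 allows up to 129 CPM. Without the 3-day library 3 genes of the list were 2-fold higher. Taken as the mean of the 4 libraries' ratios the list's median was -0.10, the opposite sign, and the control library alone had a median of -6.32 over 4 genes. Both values take a control count of 0 as 0 CPM. The 129 CPM that such a count allows lies above the 88.8 CPM of Mpo in remaining cells. The size of the control ratios, and the change of sign, are thus uncertain. Ms4a3, a membrane protein of granulocyte-monocyte progenitors, was more widely shared, with UMIs in 32 members, 387 CPM in members and 0.930 CPM in remaining cells. Prss57 and Cst7 differed by less than 2-fold, at log2 ratios of 0.32 and 0.25.

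Tertiary granule and late neutrophil genes were higher as well, from lower levels. All 11 tertiary granule genes were more than 2-fold higher in members when no minimum level was set, and so were 18 of 24 late neutrophil genes, with 0 lower in either list. Of these lists 9 and 9 genes reached 50 CPM, 15 of the 18 in members only. Wfdc21, a secreted whey acidic protein family member, had 8182 CPM in members and 0.819 CPM in remaining cells. Retnlg, resistin-like gamma, had 419 CPM in uninduced, 558 CPM in 3-day, 2372 CPM in 6-day and 1715 CPM in control members, and 1.03 CPM in all remaining cells. It was present in 31 members, 1 of which held 22.4% of its UMIs. Mmp8, neutrophil collagenase, had 168 CPM in members and 0.292 CPM in remaining cells. Mmp9, gelatinase B, had 128 CPM in members and 0.125 CPM in remaining cells. Ly6g, the surface antigen that marks mouse neutrophils, had 128 UMIs in 45 members and 1 UMI in the remaining cells. Markers of fully mature cells were scarce. Cxcr2, the chemokine receptor of neutrophils leaving the marrow, had 8 UMIs in 8 members, 19.3 CPM in members and 2.58 CPM in remaining cells. Il1r2, the decoy interleukin-1 receptor, had 3 UMIs, and its fold of 3.09 had an interval of 0.632 to 9.20.

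Cebpe, the oxidase and other S100 genes were higher in members too, while Runx1 and Irf8 differed by less than 2-fold. Cebpe had 775 CPM in uninduced, 882 CPM in 3-day, 587 CPM in 6-day and 943 CPM in control members, with UMIs in 61 of 73 members, and 0.236 CPM in remaining cells. Cebpb, a related factor, had 229 CPM in members and 72.5 CPM in remaining cells. Spi1, which encodes the myeloid factor PU.1, had 450.0 CPM in members and 155 CPM in remaining cells. Runx1, a factor of blood stem cells, had a log2 ratio of -0.32, and Irf8, a factor of monocyte and dendritic fate, had -0.40. All 6 genes of the phagocyte NADPH oxidase were 2-fold higher, with a median of 2.82, beside the 16.1% of all genes compared. Of these 6, 3 reached 50 CPM in members only, so they could enter only by being high there. Among the 6 is Cybb, which is on the secondary granule list as well. Cybb, the gp91phox subunit, had 649.7 CPM in members and 1.24 CPM in remaining cells, and Cyba, its p22phox partner, had 2098 CPM in members and 186 CPM in remaining cells. Of 11 other S100 genes 5 were compared, 2 of which reached 50 CPM in members only. Of the 5, S100a6, S100a11, S100a1 and S100a13 were 2-fold higher and 0 were 2-fold lower.

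Progenitor genes were lower in members as a class. Of all 24 on the list, with no minimum level, 21 were 2-fold lower and 0 higher, beside the 20.1% of all genes that were lower on that count. Of the 18 at the minimum level 17 were 2-fold lower, the exception being Etv6 at -0.23, and all 18 reached 50 CPM in remaining cells, 11 of them there only. The list's median log2 ratio was -1.78, but -3.31 as a mean over libraries, -2.65 as a mean over cells and -3.58 without the 16 members with a Cd34 or Flt3 UMI. By library it ran between -1.39 in 6-day and -6.82 in control members. The control members held only 4 UMIs of the list. A count of 0 there allows up to 129 CPM but entered the ratio as 0 CPM. The size of the control median, and of the mean over libraries that takes it in, is thus uncertain. The list summed to 171 CPM in control members and 4236 CPM in remaining control cells. In the pool the list's summed level was 1184 CPM in members and 4043 CPM in remaining cells. Cd34, a sialomucin of stem and progenitor cells, had 139.8 CPM in uninduced, 49 CPM in 3-day, 128 CPM in 6-day and 0 CPM in control members, and 459 CPM in remaining cells. Flt3, the cytokine receptor used to recognise LMPPs, had 57.2 CPM in uninduced, 0 CPM in 3-day, 75.3 CPM in 6-day and 0 CPM in control members, and 207 CPM in remaining cells. Sox4, a transcription factor of early progenitors, had 172 CPM in uninduced, 19.6 CPM in 3-day, 121 CPM in 6-day and 0 CPM in control members, and 554 CPM in remaining cells. In all 3 genes the control members had no UMI, and the uninduced and 6-day members were above the 3-day members. Meis1, a homeobox factor of stem cells, had the lowest ratio of the list, -2.90, from 5 UMIs. Dntt, the terminal transferase of lymphoid progenitors, had 193 CPM in members and 771 CPM in remaining cells.

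For shares of cells with a given transcript, each cell was thinned to 2000 UMIs, gate genes included, so members kept fewer UMIs of other genes than remaining cells did. Camp was detected in 90.4% of members (81.2 to 96.1) and 0.886% of remaining cells (0.701 to 1.10). Ltf was detected in 80.8% of members (69.9 to 89.1) and 0.0341% of remaining cells. Elane was detected in 15.1% of members (7.77 to 25.4) and 0.216% of remaining cells, and Mpo in 9.59% of members (3.94 to 18.8) and 10.7% of remaining cells. Retnlg was detected in 30.1% of members (19.9 to 42.0) and 0.182% of remaining cells. Cd34 was detected in 5.48% of members (1.51 to 13.4) and 59.7% of remaining cells. At 2000 UMIs other than the gate genes, which left out 4 members, the shares were 89.9% of members and 0.908% of remaining cells for Camp, 36.2% of members and 0.216% of remaining cells for Retnlg, and 8.70% of members and 59.6% of remaining cells for Cd34. Unthinned, the Cd34 shares were 17.8% of members and 93.1% of remaining cells. RNA outside cells held Cd34 at 553 CPM in the uninduced, 545 CPM in the 3-day, 504 CPM in the 6-day and 567 CPM in the control library. It held Camp at 368 CPM in the uninduced, 507 CPM in the 3-day, 443 CPM in the 6-day and 120.2 CPM in the control library. The part of free RNA in these shares was not tested.

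Members differed among themselves in which granule genes they held. They were split into 3 sets by transcript, chosen after the values were seen, and each set is a range and not a type. The Elane-high set held the 8 members with 20 or more Elane UMIs, the Retnlg-high set held the 14 with 5 or more Retnlg UMIs, and the Camp-high set held 49 others with 100 or more Camp UMIs, leaving 2 members outside. Near the limits lay 2 members with 10 to 40 Elane UMIs, 4 with 3 to 8 Retnlg UMIs and 10 with 50 to 200 Camp UMIs. No member had 10 or more UMIs of both Elane and Retnlg. In the Elane-high set, Mpo stood at 1443 CPM, against 25.3 CPM in the Camp-high and 36.7 CPM in the Retnlg-high set. Ms4a3 stood at 986 CPM in the Elane-high and 325 CPM in the Camp-high set, and no UMI was found in the Retnlg-high set. Fcnb followed the same order, at 1244 CPM in the Elane-high, 743 CPM in the Camp-high and 24.5 CPM in the Retnlg-high set. Cebpe was highest in the Camp-high set, at 481 CPM in the Elane-high (345 to 653), 1101 CPM in the Camp-high (972 to 1243) and 122 CPM in the Retnlg-high set (58.7 to 225). Ltf stood at 305 CPM in the Elane-high, 5628 CPM in the Camp-high and 2581 CPM in the Retnlg-high set. All Ltf UMIs of the Elane-high set, 2 and 24, lay in the 3-day cells with 20 and 27 Elane UMIs. These cells also held 521 and 908 Camp UMIs. The Ltf order turned among members without a Cd34 or Flt3 UMI, at 7623 CPM in 43 Camp-high and 9466 CPM in 7 Retnlg-high cells. Cebpe stayed highest in the Camp-high set among them, at 476 CPM in 6 Elane-high, 1334 CPM in Camp-high and 519 CPM in Retnlg-high cells.

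Mmp8, Mmp9 and Ly6g were not detected in the Elane-high set. Mmp8 had no UMI in the Elane-high set, which allows up to 35.2 CPM, and stood at 80.2 CPM in the Camp-high and 624 CPM in the Retnlg-high set. Mmp9 likewise had none in the Elane-high set, with 75.9 CPM in the Camp-high and 416 CPM in the Retnlg-high set. Ly6g had none in the Elane-high set, with 426 CPM in the Camp-high and 330.2 CPM in the Retnlg-high set. Among members without a Cd34 or Flt3 UMI that order turned too, at 616 CPM in Camp-high and 1501 CPM in Retnlg-high cells. Over the 73 members Spearman's rho was 0.57 for Camp with Ngp, 0.79 for Elane with Prtn3, 0.65 for Retnlg with Mmp8 and -0.35 for Camp with Elane. These are descriptions over cells that share libraries and whose depth varies. Ly6c2, a surface antigen of monocytes and immature granulocytes that is nearly identical in sequence to Ly6c1, stood at 3509 CPM in the Elane-high, 924 CPM in the Camp-high and 514 CPM in the Retnlg-high set. Among members without a Cd34 or Flt3 UMI it stood at 5343 CPM in Elane-high, 1086 CPM in Camp-high and 2078 CPM in Retnlg-high cells. The Elane-high cells with 73 and 74 Ly6c2 UMIs had no Camp, Ngp or Ltf UMI. S100a8 made up 85.5% and 98.2% of their gate UMIs, against a median of 65.9% over members. That share was 97.6% in the 3-day cell outside the sets, which held 20 Ly6c2 UMIs. Whether these cells are of another lineage was not tested.

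**Figure D3:**
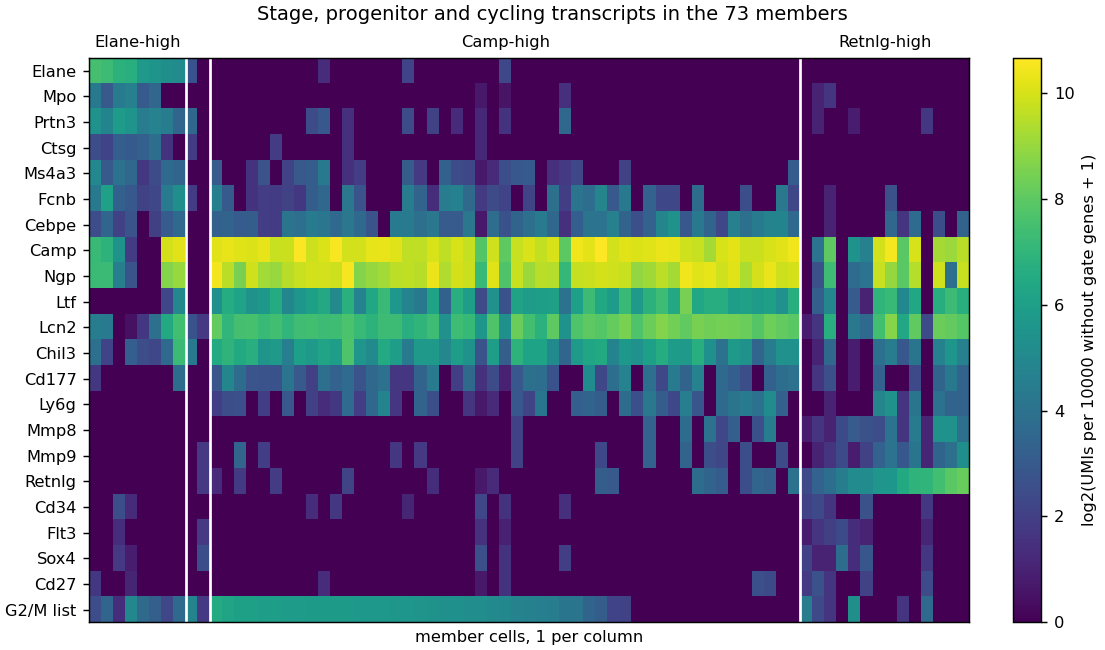
Each column is 1 of the 73 members and each row a gene or the summed G2 and M phase list, coloured by log2 of (UMIs per 10000 without the gate genes + 1). From the left stand 8 Elane-high cells, 2 cells outside the sets, 49 Camp-high cells and 14 Retnlg-high cells, and every Camp-high cell has 91 or more Ngp UMIs.

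Mitotic transcripts were highest in the Camp-high set. The G2 and M phase list, 20 genes of mitosis, summed to 1479 CPM in the Elane-high, 3430 CPM in the Camp-high and 1113 CPM in the Retnlg-high set, against 1646 CPM in remaining cells. In the Elane-high set 1 cell at 3 days held 82 of the 126 UMIs, and without it the set stood at 753 CPM, or at 685 CPM without the 3-day library. Among members without a Cd34 or Flt3 UMI the Camp-high cells stood at 3507 CPM and the Retnlg-high cells at 57.7 CPM. At 10 or more such UMIs per 10000 stood 4 of 8 Elane-high, 31 of 49 Camp-high and 3 of 14 Retnlg-high cells, and 14 Camp-high cells had none. Over all members 3 of 14 compared genes of the list were 2-fold higher than in remaining cells, a share of 21.4% near the 16.1% of all genes, and 0 lower, and the list's median log2 ratio was 0.50, or 0.10 with S100a8 and S100a9 in the totals. Ube2c, a mitotic ubiquitin-conjugating enzyme, had 525 CPM in members and 222 CPM in remaining cells. Mki67, the proliferation marker Ki-67, had 185 CPM in members and 80.3 CPM in remaining cells. Of 15 S phase genes compared, Rrm2, a subunit of ribonucleotide reductase, was 2-fold higher at 259.9 CPM in members and 67.2 CPM in remaining cells, and Ung was 2-fold lower. Ribosomal protein transcripts made up a median of 8.99% of a member's UMIs without the gate genes and 38.8% of a remaining cell's.

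Progenitor transcripts were higher in the minority of members with a Cd34 or Flt3 UMI, and this group had the higher median of UMIs. The level did not follow depth in every cell. With the gate left out, the progenitor list had 46.6 UMIs per 10000 in a member of 2474 UMIs. It had 15.3 in the member of 28213 UMIs. Other cells went with depth, with 0 in a member of 3900 UMIs and 28.6 in a member of 17639 UMIs. These are single cells, and the relation of the level to depth over all members was not tested. A UMI of Cd34 or Flt3 was found in 16 members, namely 8 of 25 uninduced, 2 of 16 3-day, 6 of 25 6-day and 0 of 7 control members. A deeper cell is more likely to show such a UMI. These 16 had a median of 11664.5 UMIs, against 5081 in the other 57 members, and 10 of 16 had more than 10000 UMIs, against 5 of 57. Their ribosomal protein share was a median of 32.4%, against 8.11% in the other 57. The progenitor list, which holds both genes, summed to 2218 CPM in the 16, 337 CPM in the 57 and 4043 CPM in the remaining cells. Sox4, which was not used to split them, had 240.5 CPM in the 16 and no UMI in the 57, which allows up to 13.1 CPM. Dntt had 406 CPM in the 16 and 17.5 CPM in the 57. Camp was lower in the 16, at 20532 CPM in the 16 and 84956 CPM in the 57. No doublet caller was run, and whether some of these droplets held a neutrophil and a progenitor together was not tested.

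**Figure D4:**
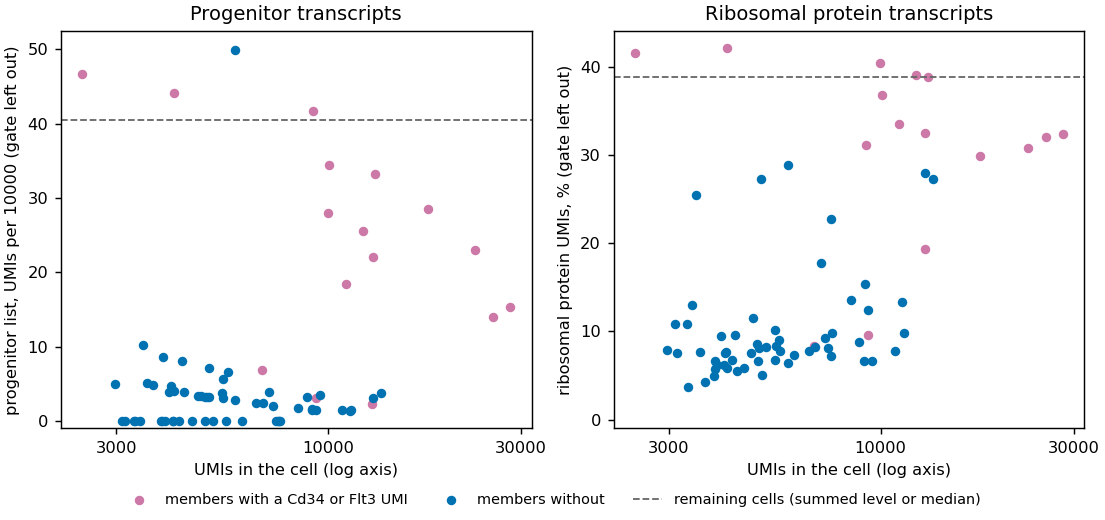
Left, progenitor list UMIs per 10000 in each member by its UMIs (log axis), and right, ribosomal protein UMIs in percent. Members with a Cd34 or Flt3 UMI (16) are in pink and those without (57) in blue, and the dashed line is the level of remaining cells, summed on the left and the median on the right, and the median UMIs are 11664.5 for the pink and 5081 for the blue points.

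The split cut through the Retnlg-high set in particular. Of its 14 cells, 7 had a Cd34 or Flt3 UMI and 7 had none, and 6 of those 7 with one came from the 6-day library. The 7 with one had a median ribosomal protein share of 38.8% and a median of 10064 UMIs, against 5.81% and 3873 UMIs in the 7 without. In 1 of the 7 without, the progenitor list still reached 49.9 UMIs per 10000. Retnlg stood at 3321 CPM in the 7 with and 13506 CPM in the 7 without, Ly6g at 15.5 CPM with and 1501 CPM without, and Camp at 5323 CPM with and 71573 CPM without. Among Camp-high cells the median ribosomal protein share was 24.6% in the 6 with and 7.82% in the 43 without. Without all 16 cells, 659 genes were 2-fold higher in members and 825 lower, of 3019 compared, and 13 secondary granule genes were 2-fold higher with a median of 9.52.

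Lists of other blood lineages mostly stood below the minimum level, and among their genes that reached it erythroid and dendritic genes were lower and monocyte genes higher in members. Of 13 eosinophil, basophil and mast cell genes, 11 had no UMI in any member, and no gene of the macrophage, megakaryocyte or B lineage lists reached 50 CPM. Of 14 monocyte genes 3 were compared, and Ly6c2 and Cd14, the endotoxin co-receptor, were 2-fold higher, while Csf1r, the receptor for macrophage colony-stimulating factor, had 9.63 CPM from 4 UMIs in members and 6.11 CPM in remaining cells. The monocyte list summed to 1670.0 CPM in members and 169 CPM in remaining cells, and its part in the members' profile was not tested. Of 5 dendritic cell genes compared 3 were 2-fold lower, and that list summed to 953 CPM in members and 1036 CPM in remaining cells. All 5 erythroid genes compared were 2-fold lower, and the haemoglobin genes among them have near-identical copies whose reads may be split. Ccl5, a chemokine of T and natural killer cells, was 700.3 CPM in members, but all 291 UMIs lay in 1 uninduced cell. Lepr, the leptin receptor, was 2-fold higher, with 60.9% of its 23 UMIs in 1 cell.

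The 59 non-members with 20 or more UMIs over Elane, Prtn3 and Ctsg are here called primary granule progenitors, a name that rests on those UMIs only. Camp had 56103 CPM in members and 1.91 CPM in primary granule progenitors. With those 3 genes and the gate left out, 2984 genes were compared, of which 418 were 2-fold higher in members (14%) and 534 lower (17.9%). All 13 secondary granule genes compared were higher in members, and 9 of 9 tertiary granule genes. Of these only Serpinb1a, at 165 CPM, and Slpi, at 93.6 CPM, reached 50 CPM in primary granule progenitors. The others could enter the comparison only by being high in members, so their count is no separate result. Cebpe had 753 CPM in members and 0.955 CPM in primary granule progenitors. Irf8 had 86.9 CPM in members and 374 CPM in primary granule progenitors. Mpo had 319 CPM in members and 789 CPM in primary granule progenitors. Ms4a3 was higher in members, with 389 CPM in members and 40.1 CPM in primary granule progenitors. Of 11 progenitor genes compared 9 were 2-fold lower in members, and of 19 G2 and M phase genes 5 were lower and 0 higher. The 59 cells had a median of 17635 UMIs and a median ribosomal protein share of 36.3%. They came from all 4 libraries, 15 from the uninduced, 7 from the 3-day, 10 from the 6-day and 27 from the control library. Their Cd34 level was 432 CPM, within the 414 to 485 CPM of remaining cells by library. Their Sox4 level was 418 CPM, below the 516 to 577 CPM of remaining cells by library. An Elane UMI was found in 42 remaining cells in all, so some of the 59 had none.

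Members were scarcest in the control library. Their share was 0.903% (25 of 2769; 0.585 to 1.33) in the uninduced, 1.24% (16 of 1292; 0.709 to 2.00) in the 3-day, 1.17% (25 of 2129; 0.761 to 1.73) in the 6-day and 0.260% (7 of 2693; 0.105 to 0.535) in the control library. The control interval lies below the other 3, which overlap each other. Library, sort and group cannot be told apart here, and in a sort the share depends on the gate. The free RNA moved with it, since S100a8 in barcodes of 10 to 100 UMIs was also lowest in the control library. The Elane-high set had 1 uninduced, 4 3-day, 3 6-day and 0 control cells, and the Retnlg-high set 3 uninduced, 1 3-day, 8 6-day and 2 control cells. Whether the 0 of 7 in control differs from the other libraries was not tested.

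**Figure D5:**
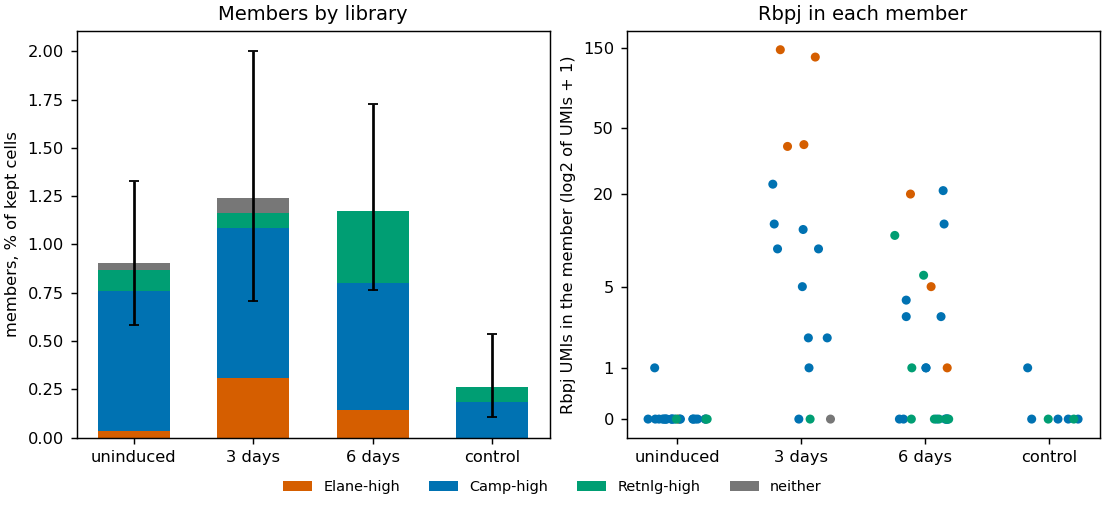
Left, members in percent of kept cells by library, stacked by set, with exact binomial intervals at 95% for the total, and right, Rbpj UMIs in each member, spaced as log2 of (UMIs + 1), coloured by set. Control has the lowest share, and the 4 Elane-high cells of the 3-day library have the most Rbpj UMIs, not scaled to depth.

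Rbpj itself (ENSMUSG00000039191, GRCm38 chromosome 5, 53466152 to 53657362, plus strand) was carried by members of the induced libraries. At 3 days its summed level was 6762 CPM in the Elane-high and 1928 CPM in the Camp-high set. Rbpj stood at 6.35 CPM in uninduced, 4261 CPM in 3-day (3870.4 to 4681), 678 CPM in 6-day (545 to 833) and 42.9 CPM in control members. In the remaining cells it stood at 11.3 CPM in the uninduced, 473 CPM in the 3-day, 484 CPM in the 6-day and 17.8 CPM in the control library. A Rbpj UMI was found in 1 of 25 uninduced, 13 of 16 3-day, 13 of 25 6-day and 1 of 7 control members. The 4 Elane-high cells at 3 days held 147, 133, 40 and 39 Rbpj UMIs, and the 3 at 6 days held 20, 5 and 1. The 10 Camp-high cells at 3 days held 0 to 23, with a median of 7. These counts are not scaled to depth. Without the gate genes the Camp-high cell with 23 had 2533 UMIs. The Elane-high cells with 147 and 40 had 7843 and 13291 UMIs. Without the 2 highest cells, the 3-day members stood at 2297 CPM and the 6-day members at 419 CPM, the last below the 484 CPM of the remaining 6-day cells. Primary granule progenitors stood at 1241 CPM at 3 days and 1062 CPM at 6 days. Free RNA held Rbpj at 291 CPM at 3 days and 285 CPM at 6 days, and its part in the members' counts was not tested. Hes1, a repressor that RBPJ and Notch switch on, had 4 UMIs in members in all, in 1 uninduced and 1 6-day cell, and stood at 9.63 CPM in members and 72.2 CPM in remaining cells.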

How the data were processed

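LMPPs of 4 groups, 1 droplet library each, were sequenced on a 10x Genomics platform, per the labels' protocols. Seurat and mm10 are named in the submitters' processing notes without a role or version, and the sources used here do not give the aligner. Raw UMI counts were deposited as matrices of 27998 genes in 737280 barcodes per library. The authors' deposited log2 tables hold normalized values, and they were used only for which cells the authors kept. Values of 300 genes per library, recomputed from the counts, matched within 1e-06.

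Kept cells held 20952799 UMIs in the uninduced, 10647894 in the 3-day, 17455692 in the 6-day and 23504158 in the control library. Members held 209164 UMIs in the uninduced, 132871 in the 3-day, 168552 in the 6-day and 40364 in the control library. Counts were summed over cells and scaled to CPM without S100a8 and S100a9. A gene was compared at 50 CPM or more in either set and called at 2-fold, on log2 of (CPM + 1). No test was made, because each group has 1 library and the rule used the same cells. Intervals at 95% are exact Poisson or Clopper-Pearson, a count of 0 was given a limit of 3 counts, and all cover counting error only. Cells were thinned with a fixed seed. Doublets were kept. Tested on simulated data of 2648 genes, 40 of 40 genes set 4-fold higher and 17 of 40 set 2-fold higher passed 2-fold, and 7 of 2449 unchanged genes did.

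The members, the gene lists and the comparisons were chosen with earlier results of these data known. Genes named were those of the neutrophil, oxidase and progenitor lists, the 15 highest and 15 lowest ratios, and genes fixed by name, and others were chosen after their values were seen. Alternatives changed the gate, scaling, pooling, minimum level, fold, depth and cells. Coordinates are from GENCODE vM21 and promoters from RefSeq. Cebpd and 1100001G20Rik were not analysed here. Python 3.11.15, numpy 2.4.6, scipy 1.17.1, pandas 2.3.3 and matplotlib 3.10.9 were used.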

Additional observations from a re-analysis of the deposited data

How the results depend on the processing

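No paired analysis was possible because only 1 library stands for each group. Over 16 alternatives, 138 recomputed main values kept their direction and moved by less than 1.5 times (counts), the spread between libraries (medians) or the interval (shares), 24 moved further and 1 changed sign. The spread between libraries is wide for progenitor and primary granule medians, so that bar is loose there. The progenitor median was -1.45 to -2.28 when 1 library at a time was left out. The primary granule median was 1.08 without members with Cd34 or Flt3 UMIs. Thinning without the gate genes was added after the data were seen and kept all 13 shares of members within their intervals. The share of members was 0.711% to 1.07% when 1 library at a time was left out. The number of genes higher in members was 261 with the gate genes in the totals, 937 at a minimum of 10 CPM, 1525 with no minimum and 217 at 4-fold. The number lower was 862, 1630, 3396 and 59 under the same settings, 894 as a mean over libraries, 770 as a mean over cells, 724 after thinning and 825 without members with Cd34 or Flt3 UMIs. Leaving out 1 library at a time gave 451 to 514 genes higher and 372 to 539 lower.

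Of primary granule genes 2 were higher as a mean over libraries, 3 as a mean over cells, 3 at 4-fold, and 3 to 6 when 1 library at a time was left out, and their median was -0.10 as a mean over libraries. The control members had no UMI of Elane, Mpo, Prtn3 or Ctsg, at a depth where a count of 0 allows up to 129 CPM. The secondary granule median was 9.34 as a mean over cells and 9.52 without members with Cd34 or Flt3 UMIs. Of tertiary granule and late neutrophil genes 26 were higher at a minimum of 10 CPM and 29 with none, with medians of 4.51 and 4.15. At 4-fold, 8 progenitor genes were lower. The cause of the other shifts was not tested. Depth limits the control library most, with 7 members.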
